A study of Oryza sativa with 18 samples.

Results

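A set of 126 transcripts was higher in rice roots 1 day after a pulse of the synthetic auxin 2,4-D and lay at or under set limits of the ratio of group means at 7 and 14 days post treatment (dpt). They are 126 of the 66860 transcripts in the count table. A member had a log2 ratio of 2,4-D to mock of at least 1 at 1 dpt, with all 3 2,4-D libraries above all 3 mock libraries, a log2 ratio of at most 0.5 at 7 dpt and at most 0.3 at 14 dpt, and a mean of at least 10 CPM (counts scaled to a library total of 1000000) in 2,4-D roots at 1 dpt. The log2 ratio was taken between the group means of CPM, each with 1 CPM added, so it understates the difference for transcripts near 0. The members were chosen by all 3 contrasts of 2,4-D with mock, and the ratios below describe them and test nothing.

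Whole plants of Oryza sativa cv. Nipponbare, 7 days old, were soaked for 1 h in 50 µM 2,4-D or in the same solution without it (mock), and root RNA was collected at 1, 7 and 14 dpt, with 3 biological replicates in each of the 6 groups. At 7 and 14 dpt the 2,4-D roots came only from plants that carried nodule-like structures (NLS), the swellings that auxin induces on roots, while the 1 dpt 2,4-D roots are labelled as holding no NLS. The 1 dpt libraries were sequenced in one batch and the 7 and 14 dpt libraries in another, so time since treatment and sequencing batch cannot be told apart between 1 dpt and the later times, whereas each contrast of 2,4-D with mock lies within 1 batch. Whole roots were measured, and fewer cells of a type cannot be told apart from less RNA per cell.

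Auxin is sensed in the nucleus, where the hormone joins TIR1/AFB receptors to Aux/IAA repressors and so marks the repressors for breakdown. Auxin response factors are then free to act on their targets, among them the genes of GH3 enzymes, which join auxin to amino acids and lower its free level. 2,4-D acts through the same receptors and is cleared more slowly than the natural auxin. In roots, added auxin is known to start new primordia and to hold back elongation.

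Total counts ran from 9416952 to 18057748 per library. The treatment labels were checked on the GH3 transcript LOC_Os01g55940.1, which is not a member: at 1 dpt it stood at 58.3 to 77.3 CPM in mock roots and at 1849 to 2510 CPM in 2,4-D roots, and at 14 dpt at 46.6 to 82.7 CPM in mock and 149 to 1064 CPM in 2,4-D. Over the 12232 transcripts of at least 10 CPM in 2,4-D roots at 1 dpt, the median log2 ratio was 0.13 at 1 dpt and 0.09 at both 7 and 14 dpt. With TMM scaling, which centres the bulk of the transcripts, the median fitted difference over all tested transcripts was 0.0047, -0.024 and -0.0050 at the 3 times, so the CPM ratios lie slightly higher than those on the TMM scale. All members but 1 have no name in the sources used here, and they are given by their MSU identifiers, LOC_Os with chromosome and locus number. Mock replicate 2 stood apart at 7 and 14 dpt in many members, and 36 and 27 of them met the limits of those times only with it in the mock mean.

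At 1 dpt, 1012 transcripts met the conditions of that time (8.27% of the 12232), and the members were 12.5% of those. Of the other 886, 545 exceeded the limits at both later times, 314 only that at 7 dpt and 27 only that at 14 dpt. The median log2 ratio of the members was 1.55 at 1 dpt (quartiles 1.18 and 2.03), 0.07 at 7 dpt (quartiles -0.32 and 0.37) and -0.50 at 14 dpt (quartiles -1.08 and -0.04). Without mock replicate 2 of that time, the median over the same members was 0.22 at 7 dpt and -0.27 at 14 dpt. For the other 886 the medians were 1.75, 1.45 and 0.61. The members' median level in 2,4-D roots was 49.2 CPM at 1 dpt, 22.3 at 7 dpt and 18.5 at 14 dpt, while in mock roots it was 15.7, 21.3 and 23.6 CPM.

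**Figure D1:**
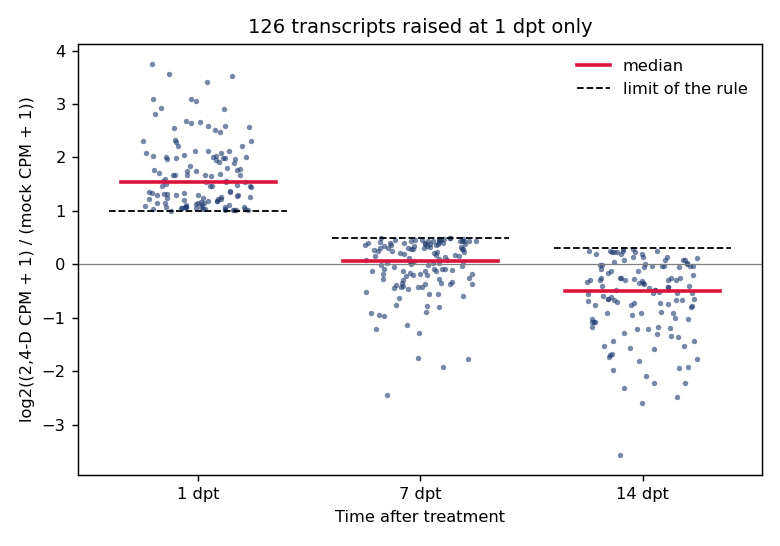
Log2 ratio of 2,4-D to mock (group means of CPM plus 1, vertical axis) for each of the 126 members (points) at 1, 7 and 14 dpt. Red bars are medians (1.55, 0.07 and -0.50) and dashed lines are the limits that chose the members, so the points lie above the line at 1 dpt and below it later by construction; the spread below 0 at 14 dpt is what the limits left free.

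The size of the difference at 1 dpt varied widely within the set. Ratios ran from 1.00 to 3.76, with 35 members at 2 or more and 7 at 3 or more, and 32 members reached a mean of 100 CPM or more in 2,4-D roots. The lowest 2,4-D library stood above the highest mock library by a median of 1.71-fold over the members, by as little as 1.03-fold in 1 of them and by at least 2-fold in 40. The coefficient of variation over the 3 replicates had a median of 26.6% in 2,4-D and 32.0% in mock roots at 1 dpt.

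The member with the largest ratio was LOC_Os03g25370.1. Its 3 mock libraries at 1 dpt held 17.6, 12.2 and 9.98 CPM and its 3 2,4-D libraries 193, 115 and 267 CPM, a log2 ratio of 3.76. At 7 dpt the mock libraries held 36.4, 32.8 and 10.7 CPM and the 2,4-D libraries 13.1, 40.7 and 5.22 CPM. The groups were far apart at 1 dpt and overlapped at 7 and again at 14 dpt, where mock held 26.4, 15.0 and 30.0 and 2,4-D 10.1, 41.3 and 3.27 CPM. With edgeR, the log2 fold change at 1 dpt was 3.78 ± 0.41 (SE).

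Its neighbour LOC_Os03g25360.1 ran alongside it. The mock libraries at 1 dpt held 6.03, 4.91 and 4.88 CPM and the 2,4-D libraries 52.7, 25.0 and 63.0 CPM. By 7 dpt the same transcript was at 16.9, 15.7 and 4.73 CPM in mock and 5.45, 8.25 and 0.824 CPM in 2,4-D, with 2,4-D replicates 1 and 2 above the lowest mock library and below the other two. Both transcripts stayed in the set whichever of the 18 libraries was left out.

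LOC_Os02g14430.1 stood at 7.99, 9.97 and 12.5 CPM in mock and 186, 82.9 and 114 CPM in 2,4-D roots at 1 dpt (log2 ratio 3.53). At 14 dpt it was at 34.8, 9.04 and 26.5 CPM in mock and 17.5, 30.3 and 34.9 CPM in 2,4-D, a level above its 1 dpt mock values in most libraries of both groups. LOC_Os03g08790.1 followed a like course, at 21.6, 31.7 and 15.0 CPM in mock and 193, 145 and 253 CPM in 2,4-D roots at 1 dpt. Its mock libraries lay between 8.13 and 33.0 CPM at all 3 times, and the later 2,4-D libraries, at 51.7, 18.6 and 24.3 CPM at 7 dpt and 10.1, 19.5 and 8.85 CPM at 14 dpt, lay in that range but for replicate 1 at 7 dpt.

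Other members with large ratios were near 0 in mock roots at 1 dpt. LOC_Os03g62860.1 was at 0.581, 0.137 and 0.743 CPM in mock roots at 1 dpt and at 9.92, 15.1 and 10.3 CPM in 2,4-D roots, and none of the 12 later libraries exceeded 1.22 CPM. LOC_Os01g32460.1 held 1.09, 0.751 and 3.08 CPM in mock and 30.6, 26.9 and 7.14 CPM in 2,4-D roots at 1 dpt, with 2,4-D replicate 3 well under the other two. Its mock libraries were at 7.21, 5.06 and 7.06 CPM at 7 dpt and 25.5, 11.5 and 3.35 CPM at 14 dpt, each above all 3 mock values of 1 dpt, and the 2,4-D libraries of those times lay around them.

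In several of the largest ratios a single 2,4-D library weighed most. LOC_Os02g36020.1 was at 29.9, 25.6 and 110.2 CPM in 2,4-D and 1.60, 3.34 and 6.37 CPM in mock roots at 1 dpt, LOC_Os03g61500.1 at 7.31, 8.21 and 42.6 against 0.799, 1.91 and 2.97 CPM, and LOC_Os09g20260.1 at 7.01, 2.68 and 31.5 against 0.799, 0.341 and 0 CPM. In these 3 the highest library was 2,4-D replicate 3. In LOC_Os07g44460.1 it was 2,4-D replicate 1, at 48.8, 4.97 and 7.30 CPM against 0.726, 2.94 and 3.29 CPM in mock. LOC_Os01g51570.1 had its highest value in 2,4-D replicate 2, at 79.9, 226 and 45.6 CPM against 13.7, 9.90 and 29.6 CPM. For LOC_Os03g24690.1 the mock group itself was uneven, at 2.83, 1.71 and 30.4 CPM, with 2,4-D at 45.8, 56.8 and 178 CPM.

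**Figure D2:**
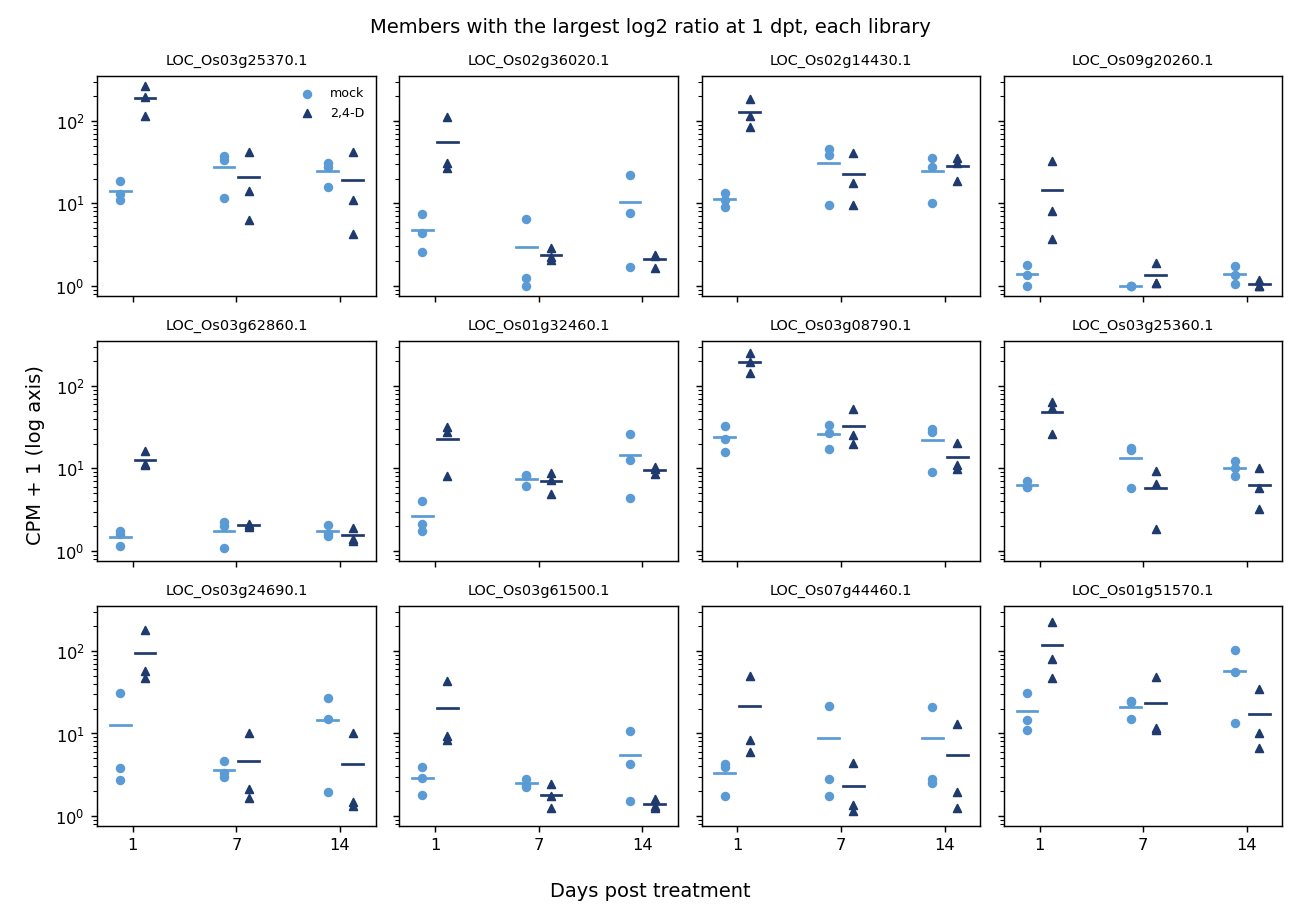
CPM plus 1 on a log axis in each library (points; bars are means of 3) at 1, 7 and 14 dpt for the 12 members with the largest log2 ratio at 1 dpt, mock in light blue circles and 2,4-D in dark blue triangles. The 2,4-D points stand above the mock points at 1 dpt in each panel and overlap them at 14 dpt in all 12 panels, and the panels differ in whether the 2,4-D level came down or the mock level moved up.

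CPM is not divided by transcript length, so it compares libraries for a transcript and not transcripts with each other. Among the members with the most counts, differences at 1 dpt were smaller and mostly more even. LOC_Os10g41060.1 held 154, 108 and 179 CPM in mock and 522, 582 and 408 CPM in 2,4-D roots at 1 dpt, and 221, 211 and 239 against 267, 202 and 177 CPM at 7 dpt. The 2,4-D libraries lay around the mock range at 7 dpt and low in it at 14 dpt, at 150.2, 156 and 159.9 CPM against 258, 139 and 229.9 CPM. The edgeR log2 fold change was 1.70 ± 0.23 (SE) at 1 dpt.

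LOC_Os04g22080.1 had the largest ratio at 1 dpt among the 10 members with the highest mean CPM. It stood at 39.6, 50.9 and 79.0 CPM in mock and 325, 276 and 399.8 CPM in 2,4-D roots at 1 dpt, at 37.6, 33.3 and 57.3 CPM in mock and 39.4, 21.5 and 38.7 CPM in 2,4-D at 7 dpt, and at 38.3, 62.1 and 41.0 CPM in mock and 12.7, 25.1 and 9.01 CPM in 2,4-D at 14 dpt. All 3 2,4-D libraries were thus above all mock libraries at 1 dpt, overlapping them at 7 dpt and below all of them at 14 dpt.

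LOC_Os02g13380.1 held 199, 198 and 267 CPM in mock and 558, 595 and 793 CPM in 2,4-D roots at 1 dpt. At 7 dpt mock held 188, 218 and 167 and 2,4-D 287, 318 and 200.2 CPM, so the 2,4-D mean was still above the mock mean, with a log2 ratio of 0.49 just inside the limit and of 0.59, over it, without mock replicate 2. LOC_Os10g22570.1, at 163, 208 and 167 CPM in mock and 804, 522 and 709 CPM in 2,4-D roots at 1 dpt, had 1 high library in each group at 14 dpt, where mock held 712, 232 and 253 and 2,4-D 316, 238 and 718 CPM.

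Another 4 members of high CPM had smaller ratios. Their log2 ratios were 1.06 for LOC_Os08g01760.1, 1.04 for LOC_Os07g03710.1, 1.20 for LOC_Os02g56280.1 and 1.29 for LOC_Os07g05400.1. LOC_Os08g01760.1 was even throughout, at 308, 311 and 422 CPM in mock and 777, 682 and 723 CPM in 2,4-D roots at 1 dpt and between 321 and 547 CPM in the 12 later libraries. LOC_Os07g03710.1 was uneven, since its mock libraries were at 295, 273 and 148 CPM at 1 dpt, 39.8, 67.8 and 159 CPM at 7 dpt and 275, 242 and 49.3 CPM at 14 dpt.

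The transcript with the highest mean of all, LOC_Os11g37970.1, owed it to 1 library. Its 2,4-D libraries at 1 dpt held 341, 493 and 2088 CPM and its mock libraries 274, 258 and 53.4 CPM. At 14 dpt the mock libraries held 229, 971 and 25.0 CPM, with replicate 2 far above the others, and the 2,4-D libraries 46.7, 133 and 21.3 CPM. The log2 ratio there was -2.59 with all libraries and -0.92 without mock replicate 2.

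The only member that the study's tables name is LOC_Os11g32650.1, described there as a chalcone and stilbene synthase family protein. Enzymes of this family build polyketides from acyl-CoA units, and chalcone synthase opens the flavonoid pathway, whose products are known in Arabidopsis to act on auxin transport. The mock libraries held 17.6, 12.4 and 7.96 CPM at 1 dpt and the 2,4-D libraries 47.4, 29.8 and 148 CPM, a log2 ratio of 2.48 with an edgeR log2 fold change of 2.51 ± 0.69 (SE). At 7 dpt mock was at 11.5, 19.6 and 4.38 and 2,4-D at 0.401, 0 and 7.83 CPM, and at 14 dpt mock was at 3.68, 4.10 and 9.60 and 2,4-D at 0.0812, 0.498 and 0.0797 CPM. The transcript was thus higher in 2,4-D roots at 1 dpt in every library, overlapped at 7 dpt through 2,4-D replicate 3 alone, and at 14 dpt was lower in 2,4-D in every library, near 0. Another named transcript of the pathway, LOC_Os10g42660.1 for a chalcone-flavanone isomerase family protein, was not higher at 1 dpt (log2 ratio 0.08). It lay at -1.24 and -1.13 at 7 and 14 dpt.

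The names come from tables of transcripts that were called different at 7 dpt in these samples, with a log2 fold change of at least 1 either way. LOC_Os11g32650.1 is in those tables, whereas edgeR here did not call it at 7 dpt (log2 fold change -2.20 ± 1.45, SE). The limit at 7 dpt that chose the members nearly bars them from such tables, so nothing is read from the lack of names among them, nor from the 0 members among the 42 named hormone transcripts, 160 protein kinases, 149 transcription factors and 112 defence transcripts. For the other members the files and the sources used here give no function.

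Marker lists could be drawn only from the same tables, so their sums differ between the groups in part by selection and are given as values. The 12 named transcripts of root primordium and auxin response summed to 148 to 163 CPM in mock and 2372 to 3111 CPM in 2,4-D roots at 1 dpt. They were picked by words in their names, GH3 among them, and 10 of the 12 met the conditions at 1 dpt. Most of the 2,4-D sum was the GH3 transcript of the treatment check, LOC_Os01g55940.1, at 1849 to 2510 CPM in 2,4-D and 58.3 to 77.3 CPM in mock. The 51 listed for root epidermis and endodermis were picked by family words, aquaporins and peroxidases among them, and were not checked against those layers. They summed to 10381 to 13887 CPM in mock and 4468 to 5831 CPM in 2,4-D, though 6 of them met the conditions at 1 dpt. The 12 of xylem and secondary wall summed to 1016 to 1361 CPM in mock and 460 to 1140 CPM in 2,4-D. The 1 named shoot transcript was at 5.80 to 10.1 CPM in mock and 12.6 to 16.9 CPM in 2,4-D roots at 1 dpt, at 5.27 to 7.07 and 14.4 to 25.3 CPM at 7 dpt, and at 6.11 to 19.96 and 9.88 to 27.1 CPM at 14 dpt. It was thus higher in every 2,4-D library than in any mock library at 1 and 7 dpt, while the groups overlapped at 14 dpt. No member belonged to these lists, and the part of tissue make-up in the members' levels was not tested.

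How the members lost their difference was read from the change in each group. From 1 to 7 dpt the median log2 change was -1.20 in 2,4-D roots and 0.23 in mock roots, and from 1 to 14 dpt it was -1.54 and 0.53. Between 1 and 7 dpt, 70 members (55.6%, against 7.26% of the 12232) were lower by a log2 change of at least 1 in 2,4-D roots, and 24 (19.0%, against 2.97%) were higher by at least 1 in mock roots. Both held for 5 members, the first alone for 65, the second alone for 19 and neither for 37. Among the other 886 raised transcripts these shares were 22.2% and 8.01%. Between 1 and 14 dpt, 86 members (68.3%, against 10.9% of the 12232) were lower in 2,4-D and 37 (29.4%, against 5.17%) higher in mock by this measure, 19 of them both. The shares among the other 886 were 35.1% and 27.7%. These changes cross the sequencing batches and follow in part from the limits that chose the members.

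**Figure D3:**
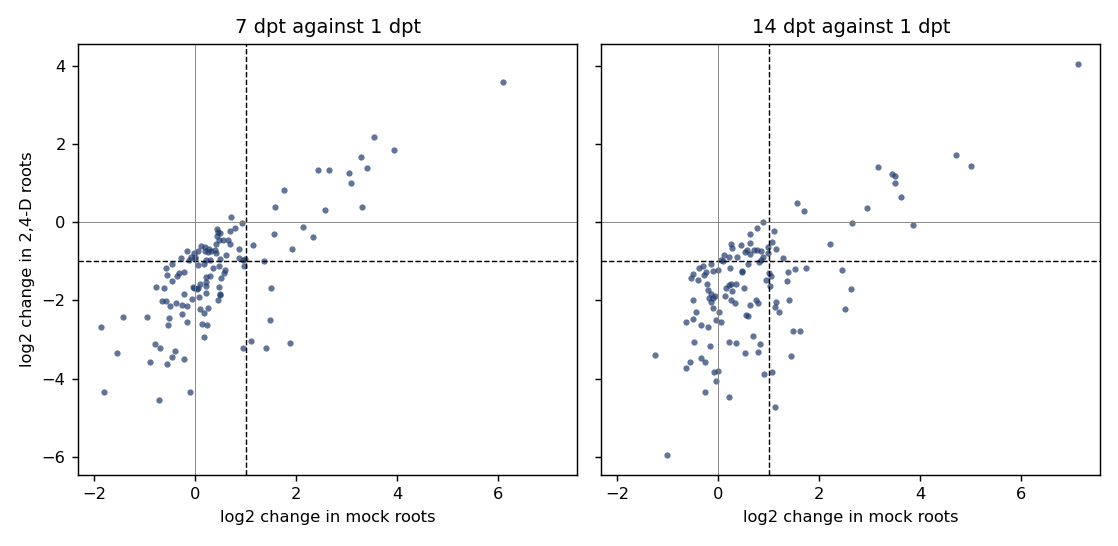
Log2 change of the group mean (CPM plus 1) from 1 dpt to 7 dpt (left) and to 14 dpt (right) in mock roots (horizontal) and 2,4-D roots (vertical), 1 point per member, with dashed lines at a change of 1 in mock and -1 in 2,4-D. Most points lie below 0 on the vertical axis near 0 on the horizontal one, and a tail at the upper right holds members that were higher at the later time in both groups.

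In the tail at the upper right of that plot the 2,4-D levels did not come down after 1 dpt. In 14 members the 2,4-D mean at 7 dpt was higher than at 1 dpt, and in 9 by at least 2-fold, and the same held at 14 dpt for 12 and 7 members. All 9 and all 7 were members in which mock replicate 2 of that time stood at least 2-fold above both other mock libraries. Without mock replicate 2 of that time, all 9 exceeded the limit at 7 dpt and all 7 that at 14 dpt. So these transcripts had higher levels in 2,4-D roots later, and they met the limits only with mock replicate 2 in the mock mean. The later levels were read across sequencing batches, and which mock libraries stand for the group was not tested.

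LOC_Os01g28790.1 was an example of the weight of mock replicate 2. The mock libraries held 9.37, 11.3 and 19.2 CPM at 1 dpt, 33.9, 345 and 33.0 CPM at 7 dpt and 20.3, 333 and 30.2 CPM at 14 dpt. In 2,4-D roots it was at 66.9, 70.2 and 35.8, then at 205, 169.8 and 186 and then at 180.1, 199 and 91.0 CPM. Mock replicate 2 stood above every 2,4-D library at 7 and 14 dpt while the other mock libraries stood below them all. The log2 ratio at 7 dpt was 0.44 with all libraries and 2.45 without mock replicate 2, and at 14 dpt it was 0.29 and 2.59.

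Mock replicate 2 at 7 dpt was at least 2-fold above both other mock libraries in 23 members (18.3%, against 2.49% of the 12232), and mock replicate 2 at 14 dpt in 31 (24.6%, against 5.38%). Among the other 886 raised transcripts the shares were 15.6% and 25.3%. The 20 members common to both were 87.0% of the first group and 64.5% of the second. Over the 23, the median log2 ratio at 7 dpt was -0.12 with all libraries and 1.17 without mock replicate 2. For the 31, the median at 14 dpt was -1.07 with all libraries and 0.62 without it, while the other 95 members had a median of -0.36. Other libraries stood out in the same way. Mock replicate 3 at 7 dpt did so in 20 members (15.9%, against 3.19% of the 12232 and 6.21% of the other 886), and 2,4-D replicate 2 at 14 dpt in 22 (17.5%, against 3.44% and 11.96%). At 1 dpt mock replicate 3 did so in 19 members (15.1%, against 6.13% and 25.1%), and it was the highest mock library of that time in 77 of the 126.

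Summed over the members, mock replicate 2 held 9385 CPM at 7 dpt against 4457 and 6276 CPM in the other mock libraries and 6025 to 7061 CPM in 2,4-D. At 14 dpt it held 13441 CPM against 7763 and 4688 CPM in mock and 4840 to 6862 CPM in 2,4-D. At 1 dpt the sums were 4110 to 4991 CPM in mock and 12350 to 15190 CPM in 2,4-D roots. The mock sum at 7 and 14 dpt thus depended on which library was read. The 1 dpt groups were separate by construction, since the rule asks this of each member, and nothing is read from it.

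**Figure D4:**
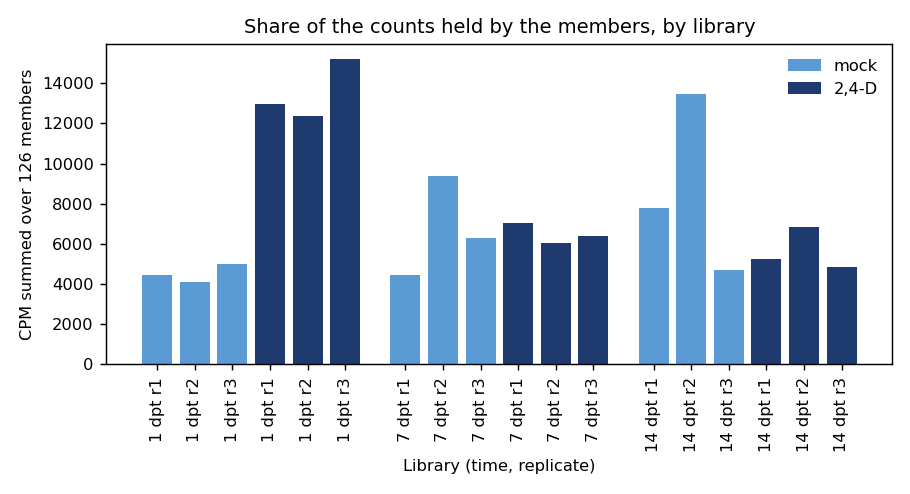
CPM summed over the 126 members in each of the 18 libraries, by time and replicate, mock in light blue and 2,4-D in dark blue. The 3 2,4-D libraries at 1 dpt (12350 to 15190 CPM) stand above the mock ones (4110 to 4991 CPM) by construction. Mock replicate 2 is the highest library at 7 dpt (9385 CPM) and at 14 dpt (13441 CPM).

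Membership was therefore taken again with each library left out. Without mock replicate 2 at 7 dpt, 36 of the 126 no longer met the rule, without mock replicate 2 at 14 dpt 27, and without mock replicate 3 at 7 dpt 25. Leaving out any single library of 1 dpt lost between 6 and 18, and let others in, so that the set grew to 297 without mock replicate 3 and to 223 without 2,4-D replicate 3 of that time. In all, 35 members were kept whichever library was left out, and their log2 ratios ran from 1.14 to 3.76 at 1 dpt (median 1.67), from -1.78 to 0.37 at 7 dpt (median -0.11) and from -3.57 to 0.22 at 14 dpt (median -0.59). Those 35 held 4 of the 12 largest ratios (LOC_Os03g25370.1, LOC_Os03g62860.1, LOC_Os01g32460.1 and LOC_Os03g25360.1), and LOC_Os04g22080.1, LOC_Os10g41060.1 and LOC_Os11g32650.1 were among them too.

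The limits were one-sided, and the members spread downward from them. At 7 dpt 52 members lay within 0.3 of 0, 42 above that and 25 between -1 and -0.3, and 7 (5.56%) were at -1 or lower, against 7.10% of the 12232. The 7 became 13 without mock replicate 1 and 11 without 2,4-D replicate 3 of that time. At 14 dpt 49 lay within 0.3 of 0, 41 between -1 and -0.3, and 36 (28.6%) at -1 or lower, against 8.61%. Without mock replicate 2 of that time the 36 became 22, and without mock replicate 3 or without 2,4-D replicate 2 they became 47. Only 3 members were at -1 or lower at both times.

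At 14 dpt most of the low ratios came with groups that overlapped. All 3 2,4-D libraries lay below all 3 mock libraries in 4 members at 7 dpt (12.3% of the 12232) and in 8 at 14 dpt (14.0%), and above them in 7 (25.9%) and 0 (20.7%). Fewer libraries make groups easier to separate, and without mock replicate 2 of that time the members wholly above became 29 at 7 dpt and 10 at 14 dpt and those wholly below 6 and 21. At 7 dpt 22 were wholly above without mock replicate 3, and leaving out any other single library of that time gave 9 to 16 above and 7 to 12 below. At 14 dpt 41 were wholly below without mock replicate 3, 32 without 2,4-D replicate 2 and 8 to 13 without any other library, mock replicate 2 aside, and 0 to 5 were wholly above. The lowest ratio at 7 dpt, -2.44 in LOC_Os09g17560.1, rested on mock replicate 3, as the mock libraries held 0.585, 1.158 and 57.3 and the 2,4-D libraries 3.05, 3.43 and 1.92 CPM. In LOC_Os07g44460.1 (-1.92) mock replicate 3 was again the high library, at 1.82, 0.731 and 20.6 CPM in mock. That of LOC_Os04g56430.1 (-1.76) came likewise from mock at 2.66, 51.4 and 308 CPM against 2,4-D at 39.9, 30.1 and 34.5 CPM. At 14 dpt the low ratios of LOC_Os02g36020.1 (-2.31), LOC_Os11g37970.1 (-2.59) and LOC_Os04g48850.1 (-2.22) had mock replicate 2 as the highest library, and without it they were -1.13, -0.92 and -0.22.

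The 1 member below mock in every library at both later times was LOC_Os12g12590.1. At 1 dpt mock stood at 37.4, 46.7 and 36.2 CPM and 2,4-D at 100.1, 80.5 and 90.5 CPM, at 7 dpt mock at 100.5, 38.9 and 26.1 CPM and 2,4-D at 22.4, 25.0 and 18.6 CPM, and at 14 dpt mock at 555, 103 and 43.1 CPM and 2,4-D at 13.2, 36.7 and 6.22 CPM. The 2,4-D libraries were thus all above mock at 1 dpt and all below it at 7 and at 14 dpt, with log2 ratios of 1.15, -1.29 and -3.57. Mock replicate 1 held the high values at both later times. It was kept in the set in all 18 leave-outs.

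edgeR's quasi-likelihood test was run on each time's 6 libraries over the transcripts that reached 10 CPM in at least 2 of them; a call needed an adjusted p (Benjamini-Hochberg) below 0.05 and a log2 fold change of 1 or more either way. At 1 dpt 119 members passed the filter and 82 were called higher, against 5.25% of all 13477 tested, and no member was called lower (8.66% of all); the rule used that contrast, and nothing is read from the count. Of the 37 tested and not called, 13 had a fitted log2 fold change under 1. The 82 became 23 without mock replicate 1, 37 without mock replicate 2 and likewise without 2,4-D replicate 1, and 39 without 2,4-D replicate 2. At 7 dpt 95 members were tested and edgeR called 0 of them. Of the 95, 4 were at an unadjusted edgeR p under 0.05 (4.21%, against 31.4% of all tested, the limit having removed high ratios). There limma-voom called 0 and DESeq2 2, both lower. Without mock replicate 2, edgeR called 4 members, all higher at 7 dpt, and without 2,4-D replicate 3 it called 2, both lower. Of all 13770 tested, 5.03% were called higher and 6.06% lower. At 14 dpt 92 were tested and 2 were called, both lower; of all 13642 tested, 5.23% were called lower and 3.13% higher. Without mock replicate 2, 1 member was called lower and 1 higher. The 2 lower calls became 1 without mock replicate 3 and 0 without mock replicate 1, 2,4-D replicate 1 or 2,4-D replicate 3.

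Those 2, named here after their values were seen, were LOC_Os01g73170.1 and LOC_Os07g44440.1. LOC_Os07g44440.1 stood at 253, 328 and 273 CPM in mock and 670.3, 434 and 836 CPM in 2,4-D roots at 1 dpt, and at 638, 313 and 499 CPM in mock and 95.7, 177 and 211 CPM in 2,4-D at 14 dpt, with an edgeR log2 fold change of -1.68 ± 0.37 (SE) there. LOC_Os01g73170.1 went from 9.08, 13.7 and 12.5 CPM in mock and 41.3, 43.4 and 41.7 CPM in 2,4-D at 1 dpt to 12.1, 23.9 and 10.04 CPM in mock and 3.41, 4.93 and 3.91 CPM in 2,4-D at 14 dpt (-2.03 ± 0.43, SE). In both, the 2,4-D libraries were all above mock at 1 dpt and all below it at 14 dpt.

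Whether the 2,4-D effect itself differed between times was taken from 1 edgeR fit over all 18 libraries. Over the 120 members in that fit, the effect at 1 dpt exceeded that at 7 dpt by a median of 1.76 on the log2 scale (0.59 to 5.70), with a median SE of 0.69, and exceeded that at 14 dpt by 2.27 (0.80 to 7.12), with a median SE of 0.70. The rule used these contrasts, so nothing is read from the size or the direction of the differences. After adjustment over all 15149 transcripts, the difference was called for 1 member between 1 and 7 dpt (0.0330% of all) and for 21 between 1 and 14 dpt (0.568%). So for 119 of the 120 members an effect confined to 1 dpt as against 7 dpt was not shown by this test, although the rule places them so. With so few calls over all transcripts, the lack of a call does not show that the effects were alike. At an unadjusted edgeR p under 0.05 were 66 of the 120 members (55.0%, against 11.6% of all), a share the rule selected for.

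The 1 member called between 1 and 7 dpt was LOC_Os10g41060.1, whose effect was larger at 1 dpt by 1.85 ± 0.30 (SE), and by 2.22 ± 0.30 (SE) against 14 dpt. LOC_Os04g22080.1, with a larger difference of 2.97 ± 0.56 (SE) from 7 dpt, was called only against 14 dpt (4.22 ± 0.57, SE). LOC_Os03g25370.1, with the largest ratio of all, had differences of 4.28 ± 1.17 and 4.24 ± 1.17 (SE) and was called in neither. The chalcone synthase family transcript had differences of 4.71 ± 1.504 and 7.12 ± 1.72 (SE) and was not called.

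Members lay on all 12 chromosomes, from 6 loci on chromosome 11 to 15 on chromosomes 1 and 2. As a share of a chromosome's loci of at least 10 CPM, they ran from 0.714% on chromosome 5 to 1.49% on chromosome 10. MSU locus numbers run along a chromosome, and 16 of the 126 member loci had another member within 50 locus numbers, as 8 pairs. Members made up 5.48% of the 292 such neighbours of at least 10 CPM, against 1.03% of all loci at that level. Of the 276 neighbours that were not members, 14.9% met the conditions at 1 dpt, against 7.31% of loci that were not members. Position was not part of the rule, but paired loci may share reads where their sequences are alike, and no source used here says how the authors counted such reads.

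The pairs were alike in their course to different degrees. LOC_Os02g37290.1 and LOC_Os02g37300.1 had like values in every group: the first was at 8.19, 166 and 7.41 CPM in mock and 127, 33.9 and 79.6 CPM in 2,4-D roots at 7 dpt, the second at 11.05, 206 and 8.84 CPM in mock and 104, 22.0 and 84.9 CPM in 2,4-D. Mock replicate 2 was the high library in both, and without it their log2 ratios at 7 dpt were 3.20 and 2.70, so this pair was raised at 7 dpt in the other libraries.

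A second pair, LOC_Os06g04230.1 and LOC_Os06g04240.1, repeated the pattern. At 14 dpt the first was at 16.6, 278 and 25.1 CPM in mock and 81.4, 84.7 and 35.8 CPM in 2,4-D, and the second at 2.73, 225 and 3.16 CPM in mock and 22.7, 33.8 and 1.28 CPM in 2,4-D. Mock replicate 2 was again the high one, whereas at 1 dpt both were even, with LOC_Os06g04230.1 at 15.1, 14.1 and 19.4 CPM in mock and 64.8, 79.7 and 59.9 CPM in 2,4-D.

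The pair LOC_Os08g09000.1 and LOC_Os08g09020.1 had log2 ratios of 2.57 and 2.59 at 1 dpt, 0.11 and 0.46 at 7 dpt and -1.70 and -0.92 at 14 dpt. At 1 dpt the first stood at 9.51, 17.7 and 25.2 CPM in mock and 87.7, 50.8 and 186 CPM in 2,4-D roots, and the second at 2.32, 2.94 and 15.5 CPM in mock and 52.4, 38.0 and 49.9 CPM in 2,4-D. LOC_Os07g44440.1 and LOC_Os07g44460.1 were less alike, since the first was high in all 3 2,4-D libraries at 1 dpt and the second mainly in 1 of them. Close to the pair of the largest ratios lay LOC_Os03g25340.1, which was not a member because its log2 ratio at 14 dpt was just over the limit (0.32), after 3.64 at 1 dpt and -0.39 at 7 dpt.

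Of the remaining 3 pairs, LOC_Os07g35790.1 and LOC_Os07g35810.1 had ratios of 1.02 and 1.48 at 1 dpt and 0.40 and 0.29 at 7 dpt. LOC_Os08g35600.1 and LOC_Os08g35630.1 had 1.36 and 1.12 at 1 dpt and parted at 14 dpt, at -1.54 and 0.20, but lay at -0.14 and 0.28 without mock replicate 2. LOC_Os02g49140.1 and LOC_Os02g49160.1, at 1.17 and 1.54, both lay below 0 at the later times.

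**Figure D5:**
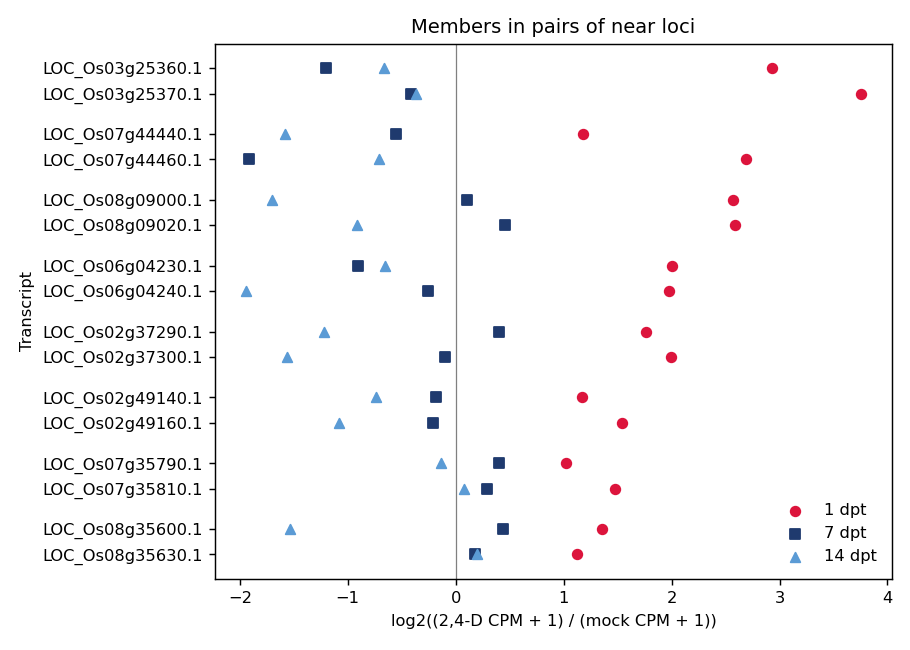
Log2 ratio of 2,4-D to mock (group means of CPM plus 1, horizontal axis) at 1 dpt (red circles), 7 dpt (dark blue squares) and 14 dpt (light blue triangles) for the 16 members that form 8 pairs of near loci, pairs set apart by gaps. Both members of each pair lie at 1 or more at 1 dpt, as the rule asks, and members of a pair lie close together at 14 dpt in some pairs and apart in others, as LOC_Os08g35600.1 (-1.54, and -0.14 without mock replicate 2) and LOC_Os08g35630.1 (0.20 and 0.28).

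Splice forms of a locus shared the difference in part. Other isoforms were listed for 7 members, and for 3 of them at least 1 such isoform reached 1 CPM in 2,4-D roots at 1 dpt. LOC_Os01g01710.2 was at 1.02, 1.02 and 9.24 CPM in mock and 27.5, 23.4 and 18.0 CPM in 2,4-D roots at 1 dpt, with log2 ratios of 2.33, 0.24 and -0.67 at the 3 times. The form LOC_Os01g01710.1 had a mean of 186 CPM in 2,4-D roots, and had ratios of 2.34, 0.68 and -0.34, so it missed the set only by its ratio at 7 dpt. LOC_Os08g30020.4 had ratios of 1.47, -0.90 and -0.33, its form LOC_Os08g30020.8 had 1.11, -0.90 and -0.15, and LOC_Os08g30020.5, at 2.13 CPM in 2,4-D roots at 1 dpt, had 0.90, -0.30 and 0.41. For LOC_Os09g14610.2, at 1.15 at 1 dpt, both other forms lay under the limit, at 0.73 and 0.79. Reads that fit several isoforms cannot be placed, so these forms are not separate measurements.

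Just inside and outside each limit the values were close. At 1 dpt the nearest members were LOC_Os06g47850.1 (1.00) and LOC_Os06g41880.1 (1.01) and the nearest outside LOC_Os01g65620.1 and LOC_Os09g04310.1 (both 1.00 when rounded, and under 1). At 7 dpt the nearest inside were LOC_Os05g38890.1 (0.50) and LOC_Os07g35370.1 (0.49) and outside LOC_Os01g37630.1 and LOC_Os07g35390.1 (both 0.51). At 14 dpt the nearest inside were LOC_Os03g55050.1 and LOC_Os01g28790.1 (both 0.29) and outside LOC_Os06g20040.1 (0.31) and LOC_Os12g41810.1 (0.32). By level, LOC_Os10g02920.1 (10.2 CPM) and LOC_Os04g20330.1 (10.4 CPM) were inside and LOC_Os11g43700.1 (9.98 CPM) and LOC_Os03g52410.1 (9.87 CPM) outside. These gaps are far smaller than the spread between replicates of a group.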

How the data were processed

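Root RNA of 18 libraries was sequenced as stranded paired-end mRNA libraries. Per the labels and the study's methods, the authors aligned reads to the MSU v7 rice genome with Rsubread and counted them per transcript with featureCounts, and the deposited table holds these raw counts. No source used here gives the strand setting or how reads that fit several places were treated, so overlapping antisense transcripts, near-identical copies and isoforms may share reads.

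Counts were scaled to CPM by the column total in Python 3.11.15 with pandas 2.3.3, and the ratio used a pseudocount of 1. edgeR 4.0.16 in R 4.3.3 (TMM factors, robust quasi-likelihood fit, the 6 libraries of a time, filter of 10 CPM in at least 2 libraries, Benjamini-Hochberg adjustment) gave the calls, and 1 fit over all 18 libraries gave the differences between times. The edgeR steps were tested on simulated data. limma 3.58.1 (voom), DESeq2 1.42.0, other scalings and filters, a replicate block and leaving out each library were the alternatives.

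The members, the gene lists and the rules for naming were chosen with earlier results of these data known. Transcripts were named by fixed rules: the 12 largest ratios and 10 highest means at 1 dpt, members named in the study's tables, those nearest each limit, the 5 lowest ratios at 7 and at 14 dpt, pairs of near loci, and members with a second isoform of at least 1 CPM. Names came from the study's tables; no RefSeq identifier matched, and no member sequence is shown. Replicates are biological per the labels, and no 2 libraries agreed within sampling noise (chi-square per degree of freedom of 8.89 to 114 within groups). Standard errors were worked out from the edgeR fit, as the size of the log2 fold change over the square root of its F statistic. There were 3 replicates a group. Those of the differences between times came from the fit over all 18 libraries.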

Additional observations from a re-analysis of the deposited data

Results flagged for a closer look

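In 4 members the 2,4-D libraries were above mock in every library at 1 dpt and below it in every library at 7 dpt, so the groups moved opposite ways at the 2 times. They were LOC_Os01g47840.1, LOC_Os09g32964.1, LOC_Os10g02920.1 and LOC_Os12g12590.1. Of all transcripts of at least 10 CPM, 12.3% had 2,4-D below mock in every library at 7 dpt. The change of sign was not tested for itself, and the edgeR difference between the times was called for 0 of the 4, with 66 of 120 members in that fit at an unadjusted p under 0.05 (55.0%, against 11.6% of all 15149). The rule selected for such differences, and nothing is read from that share.

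In 8 members the same held between 1 and 14 dpt: LOC_Os01g73170.1, LOC_Os03g55240.1, LOC_Os04g22080.1, LOC_Os07g44440.1, LOC_Os09g38350.1, LOC_Os11g32650.1, LOC_Os12g04150.1 and LOC_Os12g12590.1. Of all transcripts of at least 10 CPM, 14.0% were below mock in every library at 14 dpt. The edgeR difference between 1 and 14 dpt was called for 6 of the 8, against 21 of the 120 members in that fit and 0.568% of all 15149 transcripts. The 8 were picked by the same contrasts, so nothing is read from that count. The limits at the later times had no lower bound, so the rule allowed these values without asking for them, and time and sequencing batch cannot be told apart between the times.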

How the results depend on the processing

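Under the other scalings, pseudocounts, levels and limits tried, the set held 84 to 180 transcripts, sharing 84 to 126 with the 126 members. Leaving out 1 library gave 99 to 297, with 297 without mock replicate 3 and 223 without 2,4-D replicate 3 of 1 dpt. Transcripts called higher at 1 dpt numbered 707, but 1195 with a filter of 1 CPM, 1333 with no filter, 217 with a replicate block and 372 to 1207 without 1 library. Members called higher at 1 dpt numbered 82, but 13 with the block and 23 to 95 without 1 library. At 7 dpt 0 were called by edgeR, 2 by DESeq2 (both lower) and 0 to 4 without 1 library. The 4 without mock replicate 2 were all higher, and the 2 without 2,4-D replicate 3 were both lower. At 14 dpt 2 were called, but 0 by limma-voom, 6 by DESeq2, 1 with library sizes alone, 4 with no filter, 0 with the block, 7 with all 18 libraries in 1 fit and 0 to 2 without 1 library. All these calls at 14 dpt were lower, except 1 of the 2 without mock replicate 2, which was higher. With the members held fixed, a choice made after seeing the data, those at a log2 ratio of -1 or lower numbered 7 at 7 dpt and 8 to 13 without 1 library, and 36 at 14 dpt and 22 to 47 without 1 library. Deviations of same-numbered libraries correlated at -0.27, -0.61 and -0.57 at 1 dpt and -0.08, -0.23 and -0.19 at 7 dpt. These were all negative, while at 14 dpt replicate 1 gave -0.25, replicate 2 0.40 and replicate 3 0.28. Libraries of unlike number correlated at -0.25 to 0.57, -0.17 to 0.33 and -0.51 to 0.38 at the 3 times. So no pairing by number was seen at 1 dpt or at 7 dpt, and the 14 dpt values were mixed. Deviations from a mean of 3 libraries constrain each other, so pairing is not settled and the block is given only as a setting. The causes of these shifts were not tested. At 3 replicates a group, the median SE of a member's log2 fold change was 0.32, 0.43 and 0.48 at the 3 times, which limits the call of small differences.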
